A study of Mus musculus with 12 samples.

Results

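The genes described here are those whose hippocampal RNA on postnatal day 15 moved the same way after lipopolysaccharide (LPS) given on day 3, whatever was injected on day 14. LPS is the outer membrane lipid of Gram-negative bacteria and a standard trigger of innate immunity. All animals were C57BL/6J mice, an inbred laboratory strain, aged P15, and their sex is not in the labels. LS pups (n = 3) had LPS on day 3 and saline on day 14, and LL pups (n = 3) had LPS on both days. SS pups (n = 3) had saline on both days, and SL pups (n = 3) had saline on day 3 and LPS on day 14. Each LPS dose was 5 mg/kg, under the skin on day 3 and into the peritoneum on day 14, and whole hippocampi were taken 24 h after the second injection, each library from a separate animal. PolyA RNA was sequenced, and the authors' values are FPKM, the fragments of a gene scaled to its length and to the depth of the library.

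A gene is a member where the difference of mean log2(FPKM + 0.5) between LS and SS and that between LL and SL had the same sign. The day-3 change quoted below is the mean of these 2 differences, that is LS and LL (6 libraries) minus SS and SL (6 libraries). Of 54532 listed genes, 15041 met the sign rule. Testing was limited to the 17687 genes that reached 0.5 FPKM in 3 or more of the 12 libraries, and 9056 of these did (51.2%), 4543 higher (25.7%) and 4513 lower (25.5%) after day-3 LPS. A gene that passed this level only in the libraries where it was high had to differ. The fitted model was limma's, with 1 mean for each of the 4 groups, and a gene is named called where its Benjamini-Hochberg adjusted p over all tested genes was under 0.05. The members were selected on their mean log2(FPKM + 0.5) in these same 12 libraries, so their day-3 changes are given as a description with a standard error (SE) and without p-values. The average effect of the second injection (SL and LL minus SS and LS) was not used by the rule and was tested.

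Early postnatal life is when oligodendrocytes, the myelin-forming glia, ensheathe the axons of the mouse hippocampus, when the dentate gyrus still adds granule neurons, and when microglia, the resident macrophages of the brain, take on their mature identity. Microglia sense LPS through a Toll-like receptor, and innate cells that have met LPS can respond differently when they meet it again. In myelin, myelin basic protein helps to hold the membrane layers together, and myelin and lymphocyte protein (Mal) serves the sorting of membrane proteins.

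Markers of the labelled tissue were present, with Slc17a7 (vesicular glutamate transporter) at 274 to 358 FPKM, Camk2a (a synaptic kinase) at 421 to 516 and the granule cell factor Prox1 at 16.4 to 29.3 in the 12 libraries. Libraries of day-3 LPS animals held 18549883 to 24105022 fragments, and those of day-3 saline animals held 16979666 to 20801651. Choroid plexus, the ventricular tissue beside the hippocampus, differed between libraries. Its marker transthyretin (Ttr) was at 14.9 to 1087 FPKM in LS against 2093 to 2455 in SS, and at 2169 to 3086 in LL against 605 to 853 in SL, with LS replicates 2 and 3 at 47.7 and 14.9. The 16 choroid plexus genes summed to 38.6 to 1230 FPKM in LS and 2350 to 2810 in SS, and to 2400 to 3460 in LL and 679 to 943 in SL. None of the 16 choroid plexus and 11 ependymal genes tested met the sign rule, so these tissues contributed no list gene to the members. Xist, which marks a second X chromosome, was above 10 FPKM in 2 of 6 day-3 LPS and 3 of 6 day-3 saline libraries. In whole tissue, fewer cells of a type and less RNA per cell cannot be told apart, for any gene below.

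Promoter sequences were available from RefSeq (GRCm38.p6, 250 bases before and 50 after the start) for 556 of the 760 called members defined below. Of each of 3 gene groups, the called member with the largest weaker change whose promoter held a motif tied to that group is shown, to give the regulatory sequence beside the values. Genes with several promoters in the set, or on a chromosome left out of the choice, were passed over. The 250 bases before the start are printed on the strand of the gene, in lower case with motif matches in capitals. Opalin, a membrane protein of mature oligodendrocytes (minus strand, chr19:41077114-41077363), held ACAAAG, a core bound by SOX factors such as Sox10, beginning 139 bases before the start, and another in the bases after it, not printed. Kif11, a kinesin of the mitotic spindle (plus strand, chr19:37376132-37376381), held TTTGAA, the cell-cycle homology region of mitotic genes, on the other strand from 19 bases before the start. Ifit3, an interferon-induced protein (plus strand, chr19:34583279-34583528), held GAAA, any 2 bases and GAAA, the core of the interferon-stimulated response element, on the other strand from 156 and 122 bases before the start.
Opalin: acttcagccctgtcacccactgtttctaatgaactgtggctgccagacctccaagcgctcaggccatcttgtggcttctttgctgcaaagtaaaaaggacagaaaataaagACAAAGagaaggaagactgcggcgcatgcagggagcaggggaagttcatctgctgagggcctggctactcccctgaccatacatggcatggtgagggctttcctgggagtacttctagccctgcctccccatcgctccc
Kif11: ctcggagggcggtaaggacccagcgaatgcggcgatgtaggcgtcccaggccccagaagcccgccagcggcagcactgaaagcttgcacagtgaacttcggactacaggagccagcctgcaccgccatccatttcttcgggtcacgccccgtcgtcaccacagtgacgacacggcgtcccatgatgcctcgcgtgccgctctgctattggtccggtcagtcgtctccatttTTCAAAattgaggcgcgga
Ifit3: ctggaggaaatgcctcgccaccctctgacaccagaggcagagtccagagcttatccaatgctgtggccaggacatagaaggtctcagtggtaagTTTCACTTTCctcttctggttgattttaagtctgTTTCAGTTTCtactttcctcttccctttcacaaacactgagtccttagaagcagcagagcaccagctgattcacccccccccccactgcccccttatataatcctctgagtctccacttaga

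Each motif was searched on both strands of the 300 bases. ACAAAG was in 21% of all 27025 promoters and in 3 of 7 promoters of called myelin genes. Over the called members it was in 21.1% of the higher and 23.2% of the lower. TTTGAA was in 20.2% of all promoters and in 4 of 6 of called cell cycle genes. Its share was 13.8% of the higher and 19.4% of the lower called members. A further motif searched, GAGGAAGT, a core bound by PU.1, was in 3.69% of all promoters and in 0 of 6 of called microglia genes. It was in 5.28% of the higher and 5.16% of the lower called members. The interferon response core was in 3.99% of all promoters, in 30 of 310 promoters of called lower members (9.68%), in 4 of 246 of called higher members (1.63%) and in 7 of 14 of called interferon-stimulated genes. A match is a string of letters in a window and was not tested as a site.

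With the values as deposited more genes were called lower than higher after day-3 LPS, a split that turned with limma-voom (581 higher and 528 lower) and with an additive model (95 higher and 62 lower). Limma called 1015 of 17687 genes for the day-3 average (5.74%), 375 higher (2.12%) and 640 lower (3.62%). Of these, 760 had the same sign in both settings and are the called members, 343 higher (1.94% of tested genes) and 417 lower (2.36%). The direction of this split among same-sign calls turned with scaling. With each library centred on its median there were 466 higher and 308 lower (of all calls, 510 and 517), and with quantile normalization 489 higher and 399 lower (of all calls, 538 and 597), although these scalings moved the median of all genes by only 0.02 on the log2 scale. The typical member moved little, with a median day-3 change of 0.31 over the higher and -0.38 over the lower called members, against 0.00 over all tested genes. Of the called members, 6 of the higher and 34 of the lower changed by more than 1 on the log2 scale. Protein-coding genes made up 322 of the higher and 389 of the lower called members.

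The change was mostly larger in animals injected with LPS on day 14. LL minus SL exceeded LS minus SS in size for 271 of 343 higher and 350 of 417 lower called members. The weaker change was at least 0.5 times the stronger in 275 of them, 170 higher and 105 lower, and in the other 173 and 312 it was smaller. The interaction, the difference of the 2 changes that the sign rule used, was called for 51 of the 343 higher and 135 of the 417 lower, and for 5.33% of all tested genes; nothing is read from these counts. With median centring, 230 higher and 62 lower had changes of like size. For comparison, limma called 55 genes for LS against SS (0.311%) and 1554 for LL against SL (8.79%). Libraries did not overlap in either setting for 211 of the higher and 155 of the lower called members, where 1.82% and 1.35% of all tested genes were free of overlap in the same way. All 6 day-3 LPS libraries lay beyond all 6 day-3 saline libraries for 80 higher and 74 lower called members, against 0.622% and 0.531% of all tested genes. These counts describe the same values that chose the members.

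**Figure D1:**
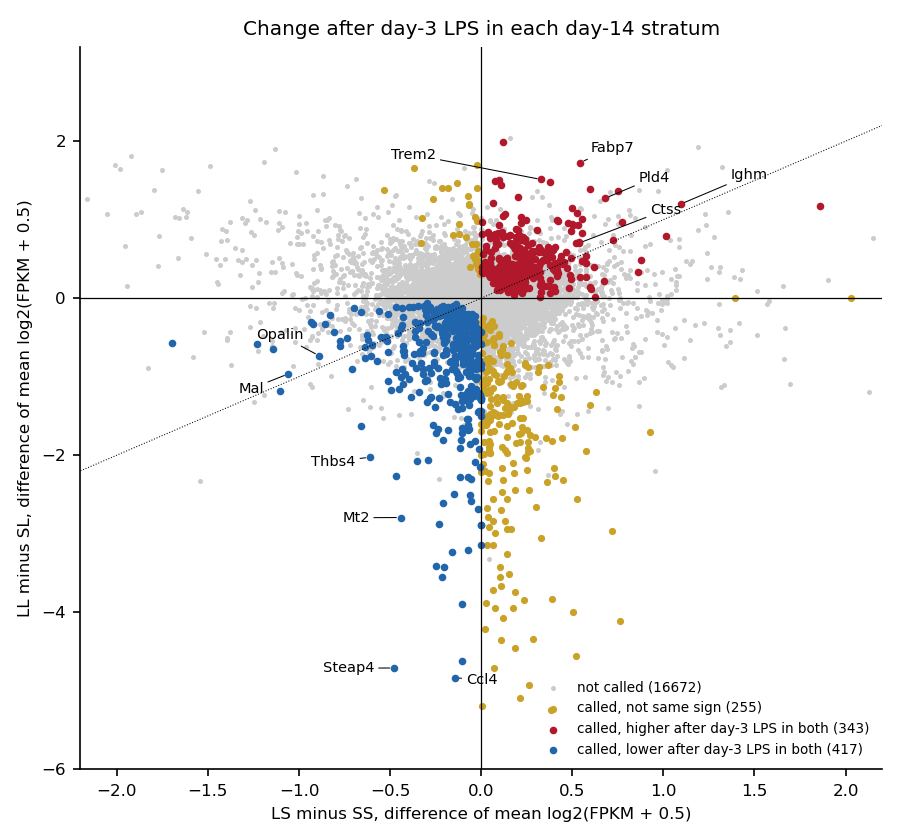
Each point is a tested gene, with the LS minus SS difference on the x axis and the LL minus SL difference on the y axis, both as differences of mean log2(FPKM + 0.5). Called genes are red (343, higher in both), blue (417, lower in both) or gold (255, not the same sign), and the dotted line marks equal change. Myelin genes such as Mal lie near that line, and many blue points lie along the y axis, where LS minus SS is near 0. Of the tested genes, 15 lie outside the axes, among them 1 called member, Ighj4.

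Genes of myelin and mature oligodendrocytes lay lower after day-3 LPS in both settings. All 20 listed genes were tested and all 20 had the same lower sign, with a median change of -0.47 for LS minus SS and -0.43 for LL minus SL. Of the 20, 9 were called lower, among them Mal, Trf, Opalin, Mobp, Mog, Cldn11, Ermn and Tspan2. The weaker change was at least 0.5 times the stronger in 7 of these, and 8 had no overlap of libraries in either setting. Leaving out LS replicates 2 and 3, which had the low Ttr, kept all 20 signs but left 1 gene called. With the mean of the choroid plexus list as a covariate, 16 had the lower sign in both settings and 9 were called.

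Mal (chromosome 2, 127633226 to 127656695 on mm10, minus strand; gene positions here are those of the deposited table) had the largest weaker change of the protein-coding lower members. Its level was 26.8, 19.6 and 20.4 FPKM in LS against 51.1, 43.4 and 45.2 in SS, and 25.2, 16.4 and 24.5 in LL against 40.6, 56.8 and 33.96 in SL, a change of -1.01 (SE 0.14) on the log2 scale. All 6 day-3 LPS libraries were below all 6 day-3 saline libraries. Mobp, the myelin-associated oligodendrocyte basic protein, was at 79.1, 63.8 and 69.4 FPKM in LS against 109.6, 107 and 106 in SS, and at 74.7, 49.5 and 74.1 in LL against 99.6, 140.0 and 91.5 in SL. Its libraries did not overlap across the 6 and 6, and the change was -0.67 (SE 0.12). The tight junction gene of myelin, Cldn11, was also free of overlap, at 83.9, 72.3 and 77.1 FPKM in LS against 117, 109.6 and 106 in SS, and 82.1, 54.9 and 82.7 in LL against 116, 143 and 95.1 in SL.

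Mog, the outer myelin glycoprotein, was at 27.3, 21.3 and 20.3 FPKM in LS against 36.4, 38.1 and 32.9 in SS, and at 21.1, 14.01 and 20.3 in LL against 29.1, 33.5 and 23.2 in SL. Opalin, whose promoter is shown above, was at 5.14, 3.08 and 3.31 FPKM in LS against 6.93, 7.79 and 7.45 in SS, and at 3.98, 2.57 and 4.47 in LL against 7.42, 7.03 and 4.76 in SL. Both were lower by a like amount in each setting, at -0.64 and -0.62 for Mog and -0.89 and -0.73 for Opalin, LS minus SS given before LL minus SL. Ermn, a cytoskeletal protein of myelinating cells, changed by -0.59 (SE 0.13) and Tspan2, a tetraspanin, by -0.45 (SE 0.09). Trf, the iron carrier transferrin made by oligodendrocytes, had unlike changes. Its LL minus SL change of -1.17 was over that of LS minus SS at -0.50, and it was the only called gene of the list raised by the second injection (0.82, SE 0.15, limma adjusted p = 0.00492).

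Mbp, myelin basic protein, was at 276, 233 and 242 FPKM in LS against 349.5, 322 and 319 in SS, and at 255, 161 and 234 in LL against 291, 357 and 247 in SL. It was not called, and its change was -0.44 (SE 0.12), with LL and SL libraries overlapping at 255 and 247 FPKM. Summed over the 20 genes, the level was 880 to 1060 FPKM in LS against 1300 to 1430 in SS, and 662 to 983 in LL against 1020 to 1470 in SL. Of 17 genes of oligodendrocyte precursors and premyelinating cells 0 were called by limma, near the 5.74% called of all tested genes. That list had a median change of 0.04, and the myelin list -0.44; their difference was not tested.

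**Figure D2:**
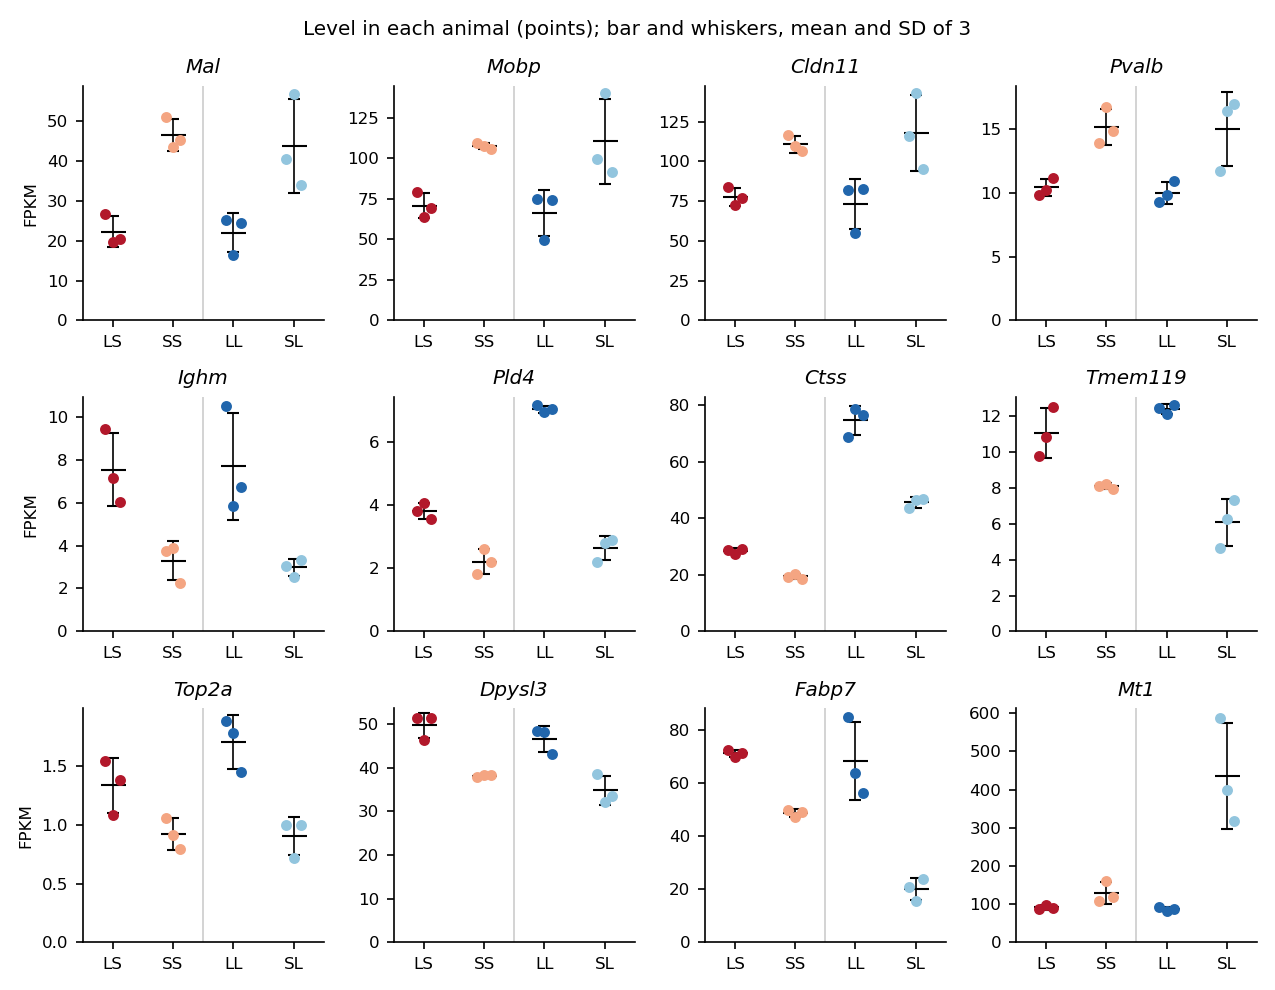
Levels in FPKM (y axis, from 0) of 12 named members in each of the 12 animals, with LS beside SS and LL beside SL on the x axis; points are animals, and the bar and whiskers are the mean and SD of 3. Mal, Mobp, Cldn11 and Pvalb lie lower and Ighm, Pld4, Tmem119 and Dpysl3 higher in all day-3 LPS animals than in all day-3 saline animals, while Mt1 stands high in SL alone.

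The other genes that led the lower members by weaker change came from several cell types. Pvalb, the calcium buffer of fast-spiking interneurons (chromosome 15, 78191114 to 78206400), was at 9.87, 10.3 and 11.2 FPKM in LS against 13.9, 16.8 and 14.9 in SS, and at 9.27, 9.804 and 10.97 in LL against 11.7, 16.4 and 16.98 in SL. Its libraries did not overlap across the 6 and 6, and the change was -0.53 (SE 0.09), alike in both settings (-0.52 and -0.55). Pvalb was the only called lower gene among 20 interneuron markers and neuropeptides. Pdyn, the dynorphin precursor found in granule cells, was the only called higher gene of that list, at 4.12, 3.803 and 4.57 FPKM in LS against 3.17, 3.25 and 2.78 in SS, and 4.75, 4.002 and 3.28 in LL against 3.09, 1.89 and 3.01 in SL. Pdyn was not called with 9 of the 12 libraries left out singly, all but LL replicate 3, SL replicate 1 and SL replicate 3, and its change was 0.36 to 0.52 over the 12.

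Thbs4, a thrombospondin secreted by astrocytes, was at 1.51, 2.16 and 1.73 FPKM in LS against 2.48, 4.42 and 2.403 in SS, and at 1.19, 1.87 and 2.097 in LL against 7.37, 9.48 and 8.46 in SL. Its libraries did not overlap across the 6 and 6, and the change was -0.61 for LS minus SS and -2.03 for LL minus SL. Etnppl, a lyase of astrocytes that breaks down phosphoethanolamine, changed by -0.81 (SE 0.11), with 0.25, 0.174 and 0.151 FPKM in LS against 0.419, 0.806 and 0.695 in SS. Gjb6, the gap junction protein connexin 30 of astrocytes, was at 13.6, 17.2 and 14.5 FPKM in LS against 18.2, 21.5 and 17.6 in SS, and at 12.8, 14.9 and 13.7 in LL against 19.1, 25.02 and 24.5 in SL. Of 20 homeostatic astrocyte genes 5 were called lower, these being Gjb6, Aldoc, Sox9, Aldh1l1 and Atp1b2, and 2 higher, Fabp7 and Hapln1. Slc1a2, a glutamate transporter of astrocytes, was not called, at 258 to 303 FPKM over the 12 libraries.

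Tspo, the mitochondrial translocator protein often used to image activated glia, was lower after day-3 LPS and higher after day-14 LPS. It was at 2.85, 2.22 and 1.86 FPKM in LS against 5.14, 3.53 and 4.28 in SS, and at 9.76, 11.8 and 12.9 in LL against 19.5, 18.3 and 15.3 in SL, a day-3 change of -0.69 (SE 0.11). The second injection raised it by 2.01 (SE 0.11; limma adjusted p = 4.12e-07). Clec2d, a ligand of a natural killer cell receptor, was lower by like amounts in both settings (-0.60 and -0.59), with 2.35, 2.95 and 3.09 FPKM in LS against 3.78, 4.97 and 4.73 in SS, and 5.24, 6.89 and 5.302 in LL against 8.09, 8.25 and 10.8 in SL. Tgfbi, an extracellular matrix protein of macrophages and stroma, changed by -0.66 (SE 0.16), with LS replicate 1 at 1.96 FPKM above the lowest SS library at 1.94. Tgfbi was not called with 9 of the 12 libraries left out singly, all but LS replicate 1, SS replicate 2 and SL replicate 3, and its change was -0.57 to -0.81 over the 12. Lgals3, galectin 3 of activated phagocytes, was at 1.24, 0.481 and 0.731 FPKM in LS against 1.58, 1.25 and 1.63 in SS, and at 1.91, 1.597 and 2.39 in LL against 3.07, 3.13 and 2.51 in SL. Lgals3 was not called with 10 of the 12 libraries left out singly, all but LS replicate 1 and LL replicate 3, and its change was -0.45 to -0.66 over the 12. With the choroid plexus covariate Tgfbi and Lgals3 did not have the same sign in both settings.

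Some genes of newborn neurons and of dividing cells were called higher after day-3 LPS, and most of the rest had the same sign. Of 20 genes of dentate neurogenesis and immature neurons, 19 had the same higher sign and 7 were called higher: Dpysl3, Dpysl5, Draxin, Hes5, Stmn2, Tubb2b and Tubb3. Their list had a median change of 0.20 for LS minus SS and 0.40 for LL minus SL. Of 23 tested cell cycle and DNA replication genes, 20 had the same higher sign and 8 were called higher: Aurkb, Birc5, Ccna2, Kif11, Mki67, Rrm2, Top2a and Ube2c. Ccnd1, cyclin D1 of the transition into S phase, was called lower (-0.19, SE 0.04). The cell cycle list had medians of 0.19 and 0.29 in the same order, against 0.00 in each setting over all tested genes. Without LS replicates 2 and 3, 3 cell cycle and 5 immature neuron genes of the lists were called higher. With the choroid plexus covariate 4 cell cycle genes were, and with a filter of 2 FPKM, which few of them passed, 1. Left out singly, LS replicates 2 and 3, LL replicate 1, SL replicates 1 and 2 and SS replicate 3 each brought the cell cycle calls to 4, and LL replicates 2 and 3 and SS replicate 1 to 5. The calls among immature neuron genes were 12 without LS replicate 2. Rrm2, of nucleotide synthesis, was not called without LS replicate 3.

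Dpysl3, a collapsin response mediator of growing axons, was at 51.4, 46.5 and 51.4 FPKM in LS against 37.8, 38.4 and 38.4 in SS, and at 48.4, 48.2 and 43.1 in LL against 38.7, 32.2 and 33.5 in SL. Its libraries did not overlap across the 6 and 6, and the change was 0.40 (SE 0.05). Draxin, a secreted axon guidance protein, was at 3.06, 2.398 and 3.24 FPKM in LS against 2.08, 1.82 and 1.54 in SS, and at 3.57, 2.71 and 2.15 in LL against 1.995, 1.61 and 1.98 in SL, also without overlap. Draxin was not called with LS replicate 1, LS replicate 3, SS replicate 3 and SL replicate 2 left out singly, and its change was 0.43 to 0.59 over the 12. Tubb3, the neuronal tubulin, was at 273, 307 and 316 FPKM in LS against 253, 254 and 256 in SS, and at 246, 222 and 237 in LL against 139, 193 and 189 in SL. For Tubb3 the LL libraries lay below the SS libraries, and the second injection lowered it, with a day-14 change of -0.45 (SE 0.08) and limma adjusted p = 0.00247. Tubb3 was not called with 7 of the 12 libraries left out singly, all but LS replicate 1, LL replicate 2, SL replicate 1, SL replicate 2 and SL replicate 3, and its change was 0.26 to 0.38 over the 12. Hes5, a Notch target of neural progenitors, changed mainly in LL minus SL (1.03, against 0.22 for LS minus SS). Dcx, doublecortin of migrating neurons, was not called, at 11.8, 8.72 and 10.9 FPKM in LS against 9.11, 9.55 and 8.81 in SS, and 10.3, 10.3 and 9.09 in LL against 8.65, 5.46 and 6.76 in SL.

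Top2a, the topoisomerase of replicating chromosomes, was at 1.55, 1.09 and 1.38 FPKM in LS against 1.06, 0.913 and 0.793 in SS, and at 1.89, 1.79 and 1.45 in LL against 0.9995, 0.719 and 1.002 in SL. Kif11 was at 1.79, 1.46 and 1.38 FPKM in LS against 1.07, 0.986 and 0.944 in SS, and at 1.62, 1.36 and 1.11 in LL against 0.744, 0.861 and 0.713 in SL. Mki67, the proliferation antigen, was at 1.43, 1.02 and 1.27 FPKM in LS against 0.893, 0.795 and 0.947 in SS, and at 1.84, 1.51 and 1.299 in LL against 0.877, 0.6701 and 0.981 in SL. None of these 3 had overlapping libraries across the 6 and 6, and their changes were 0.51 (SE 0.10), 0.49 (SE 0.09) and 0.47 (SE 0.10). At these levels, near 1 FPKM, the log2(FPKM + 0.5) scale understates the change. The replication licensing genes Mcm2, Mcm3, Mcm5 and Mcm6 were not called for day 3, though the second injection raised all 4 (Mcm3 by 0.95, SE 0.12, limma adjusted p = 0.000249).

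**Figure D3:**
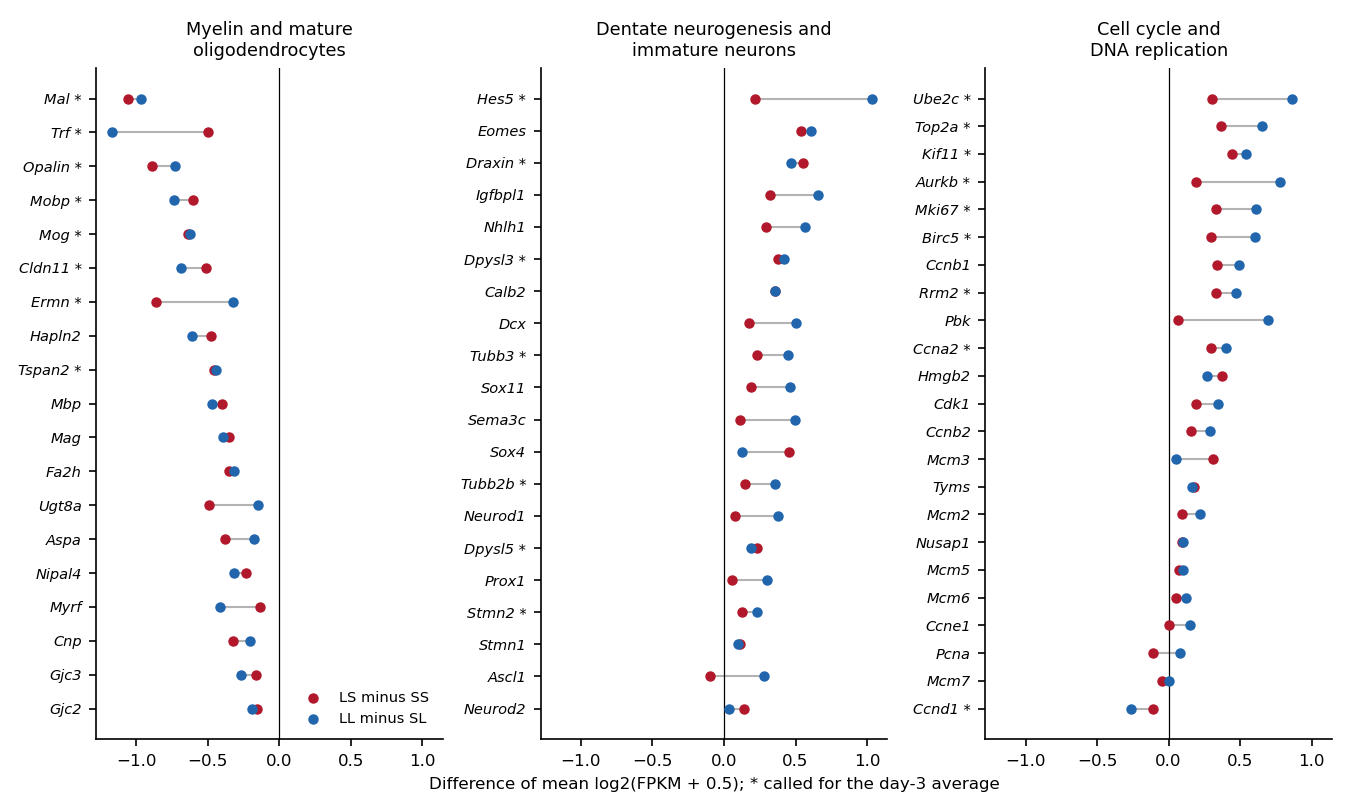
LS minus SS (red) and LL minus SL (blue) differences of mean log2(FPKM + 0.5) on the x axis for genes of 3 lists, 1 gene a row; an asterisk marks genes called for the day-3 average. All 19 myelin genes drawn, of 20 tested, lie left of 0 in both settings, 19 of 20 immature neuron genes lie right of 0 in both, and 20 of 23 cell cycle genes do so.

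Fabp7, the fatty acid binding protein of radial glia and young astrocytes (chromosome 10, 57784881 to 57788450), was at 72.7, 70.1 and 71.4 FPKM in LS against 50.1, 47.3 and 49.2 in SS, and at 84.96, 63.8 and 56.5 in LL against 21.02, 15.8 and 24.03 in SL. All day-3 LPS libraries were above all day-3 saline libraries, and the change was 0.54 for LS minus SS and 1.73 for LL minus SL. Averaged over the day-3 groups, the second injection lowered it, with a day-14 change of -0.67 (SE 0.11) and limma adjusted p = 0.00163. This fall lay in day-3 saline pups, with means of 48.9 FPKM in SS and 20.3 in SL, against 71.4 in LS and 68.4 in LL. Of 20 matrix and collagen genes, 4 were called higher and 0 lower by limma, all of them neural matrix genes: Tnc (tenascin C), Ncan (neurocan), Bcan (brevican) and Hapln1 (a link protein). Ncan was at 82.6, 82.2 and 92.2 FPKM in LS against 70.98, 67.3 and 67.7 in SS, and at 73.2, 67.8 and 62.5 in LL against 40.4, 42.4 and 45.6 in SL. Tnc changed by 0.83 (SE 0.16) and Bcan by 0.27 (SE 0.05), and all 4 were lowered by the second injection.

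Aplnr, the apelin receptor, was at 3.02, 2.36 and 2.67 FPKM in LS against 1.84, 1.91 and 1.14 in SS, and at 2.02, 1.37 and 1.53 in LL against 0.395, 0.154 and 0.419 in SL. Notum, which inactivates Wnt ligands, was at 1.51, 1.84 and 1.47 FPKM in LS against 0.951, 0.8901 and 1.102 in SS, and at 1.65, 1.23 and 0.949 in LL against 0.353, 0.366 and 0.552 in SL. Both were free of overlap within each setting, and both were lower after the second injection (Aplnr -0.97, SE 0.13, limma adjusted p = 0.000464, and Notum -0.47 (SE 0.11), limma adjusted p = 0.0178). Kcp, a secreted modulator of bone morphogenetic protein signals, changed by 0.62 (SE 0.10), Kcne1l, a potassium channel subunit, by 0.61 (SE 0.09), and Ilk, a kinase at integrin adhesions, by 0.55 (SE 0.11). Cryba4, a crystallin first known from the lens, was at 1.41, 1.78 and 1.75 FPKM in LS against 0.771, 0.7604 and 0.775 in SS, and at 3.55, 2.15 and 2.22 in LL against 0.394, 0.9902 and 0.794 in SL.

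Among genes of microglia, 8 of the 15 that mark the resting state were called higher after day-3 LPS and 1 was called lower. The higher genes included Csf1r, Cx3cr1, Sall1, Siglech, Tgfbr1, Tmem119 and Trem2, and the lower was Sparc. The list had a median change of 0.07 for LS minus SS and 0.77 for LL minus SL, so for most of these genes the change lay in animals injected on day 14, and only 2 of the 9 called genes had changes of like size. P2ry12, P2ry13 and Gpr34 were called for the average but had opposite signs, and are not members. P2ry12, the ADP receptor of surveying microglia, was at 10.2, 12.2 and 9.94 FPKM in LS against 14.6, 13.9 and 13.5 in SS, and at 6.76, 5.26 and 5.401 in LL against 1.13, 1.53 and 1.87 in SL.

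Tmem119, a membrane protein that sets microglia apart from other macrophages (chromosome 5, 113793729 to 113800516), was at 9.75, 10.8 and 12.5 FPKM in LS against 8.12, 8.23 and 7.93 in SS, and at 12.4, 12.1 and 12.6 in LL against 4.67, 6.25 and 7.302 in SL. Trem2, a lipid-sensing receptor of microglia, was at 2.52, 2.84 and 3.096 FPKM in LS against 2.45, 1.78 and 2.22 in SS, and at 4.001, 3.43 and 3.17 in LL against 0.582, 0.891 and 1.36 in SL. Neither had overlapping libraries across the 6 and 6. Csf1r, the receptor for the survival factor of microglia, changed by a like amount in both settings (0.31 and 0.41), with 19.8, 20.8 and 21.4 FPKM in LS against 17.1, 17.3 and 15.2 in SS, and 28.1, 24.8 and 26.8 in LL against 18.6, 19.8 and 21.2 in SL.

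Some phagocyte genes were on average higher after either injection. Ctss, cathepsin S (chromosome 3, 95526786 to 95556403), was at 28.9, 27.4 and 29.2 FPKM in LS against 19.4, 20.4 and 18.7 in SS, and at 68.8, 78.7 and 76.4 in LL against 43.5, 46.4 and 46.9 in SL, a day-3 change of 0.62 (SE 0.04) and a day-14 change of 1.29 (SE 0.04; limma adjusted p = 1.75e-08). Pld4, a nuclease of endolysosomes, was at 3.82, 4.08 and 3.56 FPKM in LS against 1.83, 2.61 and 2.19 in SS, and at 7.17, 6.95 and 7.04 in LL against 2.21, 2.801 and 2.91 in SL. LL libraries were the highest for both genes, and the second injection raised Pld4 by 0.51 on average (SE 0.08, limma adjusted p = 0.00122). For Pld4 this rise lay mostly in LL against LS, with means of 7.05 and 3.82 FPKM. SL and SS libraries of Pld4 overlapped, with means of 2.64 and 2.21 FPKM. The complement subunits C1qa and C1qc behaved alike: C1qc was at 21.8, 21.8 and 23.9 FPKM in LS against 15.2, 14.1 and 14.1 in SS, and at 41.5, 45.7 and 44.2 in LL against 28.8, 33.9 and 37.3 in SL. They were the only 2 called higher of 18 tested complement genes, while 3 were called lower and 6 with opposite signs. The complement list had a median day-3 change of -0.27. Aif1, the microglial protein IBA1, was at 3.47, 3.99 and 3.72 FPKM in LS against 2.45, 2.34 and 1.696 in SS, and at 9.14, 8.19 and 9.97 in LL against 7.57, 7.79 and 7.92 in SL. C1qa, C1qc and Aif1 were unlike most members in that LS minus SS was the larger change (0.86, 0.62 and 0.68, against 0.33, 0.40 and 0.21 for LL minus SL).

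Cd300c2, an activating receptor of myeloid cells, and Fgd2, a guanine nucleotide exchange factor of phagocytes, changed by 0.69 (SE 0.14) and 0.73 (SE 0.12). Of 19 tested myeloid identity genes, Aif1, Cd68, Laptm5 and Ly86 were called higher and Itgam lower, and 3 more were called with opposite signs. All 19 were raised by the second injection. Of 20 lysosomal genes 5 were called higher (among them Cd68, Ctsh, Ctss and Lgmn) and 2 lower (Ctsb and Ctsc). Of 14 tested genes of damage-associated microglia, Lpl was called higher and Ctsb, Gpnmb and Lgals3 lower, the last not called with 10 of the 12 libraries left out singly, as given above.

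Ighm, Cd79b and Ighj4, transcripts of B lymphocytes, were called higher in day-3 LPS animals at low levels. In a list of 19 T, B and NK cell genes 5 were tested, and only Ighm and Cd79b of these met the sign rule. Another 1 was called with opposite signs, and the list had a median day-3 change of 0.06. Ighm, the constant region of immunoglobulin M (chromosome 12, 113418558 to 113422730), was at 9.41, 7.17 and 6.05 FPKM in LS against 3.77, 3.87 and 2.24 in SS, and at 10.5, 5.84 and 6.73 in LL against 3.05, 2.56 and 3.35 in SL. All day-3 LPS libraries were above all day-3 saline libraries, and the change was 1.09 and 1.20 in the same 2 settings, with no day-14 call (-0.04, SE 0.17, limma adjusted p = 0.929). Cd79b, a signalling chain of the B cell receptor, was at 0.378, 1.22 and 0.797 FPKM in LS against 0.164, 0.121 and 0.0757 in SS, and at 1.46, 0.785 and 1.12 in LL against 0.165, 0.797 and 0.426 in SL, where SL replicate 2 lay above LL replicate 2. Cd79b was not called with 7 of the 12 libraries left out singly, all but LS replicate 1, LL replicate 2, SS replicate 1, SL replicate 1 and SL replicate 2, and its change was 0.78 to 1.03 over the 12. Ighm was called with each library left out. Ighj4, an immunoglobulin joining segment, was listed at 0 in all SL libraries and at 4.47, 5.83 and 4.701 FPKM in LL, and it was at 6.37, 6.44 and 2.01 FPKM in LS against 1.09, 2.15 and 0 in SS. Its 12 values rest on 0 to 7 fragments each, in a segment of a family with near-identical copies.

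The counts behind these genes are small. Ighm rested on 210 to 493 fragments in day-3 LPS libraries against 78 to 126 in day-3 saline libraries. Ms4a1, a B cell surface marker, was at 0.00795 to 0.156 FPKM, and the T cell gene Cd3e was at 0 to 0.0609 over the 12 libraries, with 4 at 0. The whole list of 19 T, B and NK cell genes summed to 9.19 to 11.4 FPKM in LS against 3.5 to 6.15 in SS, and to 9.5 to 15.5 in LL against 9.94 to 12.7 in SL. Blood content was not tested as a source, and red cell genes did not follow day 3, at 191 to 280 FPKM in LS against 213 to 248 in SS, and 90.6 to 154 in LL against 70.5 to 107 in SL for the list's sum.

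Among inflammatory genes of the lower side, LL against SL held most of the change. Of 30 type I interferon-stimulated genes, 22 had the same lower sign and 17 were called lower, with medians of -0.07 for LS minus SS and -0.87 for LL minus SL. LL minus SL was the larger change in all 17, 1 of the 17 had changes of like size (Lgals3bp), and all 17 were raised by the second injection. Ifit3, whose promoter is shown above, was at 1.35, 1.02 and 1.21 FPKM in LS against 1.92, 1.29 and 1.83 in SS, and at 3.25, 3.38 and 4.49 in LL against 13.6, 23.7 and 15.3 in SL. SL libraries were the highest and LL came between them and the animals with saline on day 14. Fragments shared with its near-identical copy Ifit3b may be split between them, since the sources used here do not say how shared fragments were counted. Lgals3bp, a secreted galectin ligand, was at 4.42, 3.58 and 2.899 FPKM in LS against 5.36, 4.82 and 4.77 in SS, and at 12.8, 18.8 and 18.3 in LL against 30.3, 29.5 and 20.9 in SL. Lgals3bp was not called with 8 of the 12 libraries left out singly, all but LS replicate 1, LL replicate 2, LL replicate 3 and SL replicate 3, and its change was -0.46 to -0.64 over the 12. With the choroid plexus covariate several named immune genes did not have the same sign in both settings. These included A2m, Lgals3bp, Steap4, Il1r1, Sod2, Ptgs2, Fcgr2b, Tapbp, Tnfsf8 and the interferon-inducible GTPase genes Gbp3, Irgm1 and Irgm2.

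In other immune lists the called genes were split between members and genes of opposite sign. Of 18 tested acute-phase genes 7 were called lower and 10 were called with opposite signs, and of 22 NF-kB targets and cytokines 3 (Il1r1, Ptgs2 and Sod2) and 19. Of 12 interferon-inducible GTPase genes 5 were called lower and 4 with opposite signs, and of 15 chemokines 4 and 7. In all of these called members LL minus SL was the larger change. A2m, the protease inhibitor alpha-2-macroglobulin, had the largest weaker change of the acute-phase genes, at 2.03, 0.75 and 0.8197 FPKM in LS against 2.4, 1.92 and 1.84 in SS, and 7.196, 10.6 and 11.1 in LL against 43.4, 27.9 and 23.2 in SL. LS replicate 1 overlapped with SS. Steap4, a metalloreductase of inflamed tissue, was at 0.639, 0.1102 and 0.138 FPKM in LS against 0.521, 0.569 and 0.601 in SS, and at 1.08, 1.62 and 1.76 in LL against 78.8, 51.5 and 32.7 in SL. The chemokine Ccl4 was at 0.548, 0.136 and 0.385 FPKM in LL against 20.5, 28.1 and 22.3 in SL. In LS it was at 0.0745, 0.0753 and 0.0823 FPKM against 0.178, 0.263 and 0 in SS. Its LS minus SS change of -0.14 thus rested on values near 0, with SS replicate 3 below all LS libraries. Markers of neutrophils moved with these genes: the 12 summed to 13.2 to 21.3 FPKM in LL against 253 to 527 in SL, and to 4.13 to 5.59 in LS against 2.68 to 4.23 in SS, and Ly6c2 of monocytes was at 0.0164 to 0.0587 FPKM in LL against 0.283 to 0.43 in SL, and at 0 to 0.0359 in LS against 0 in all SS libraries. Their part in the lower calls was not tested.

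Metallothioneins and stress targets showed the same form. Mt1, a zinc-binding metallothionein (chromosome 8, 94179082 to 94180327), was at 86.9, 98.6 and 90.7 FPKM in LS against 108, 162 and 118 in SS, and at 92.3, 81.7 and 87.1 in LL against 588, 398 and 319 in SL. Its libraries did not overlap across the 6 and 6, though most of the change was in LL minus SL (-2.27, against -0.47). Of 15 glucocorticoid targets and metallothioneins, 11 had the same lower sign and 6 were called lower: Mt1, Mt2, Fkbp5 (a co-chaperone of the glucocorticoid receptor), Hif3a, Map3k6 and Sult1a1. Sult1a1 was not called with 9 of the 12 libraries left out singly, all but LL replicate 2, SS replicate 1 and SL replicate 1, and its change was -0.41 to -0.59 over the 12. Fkbp5 was at 5.92, 5.703 and 6.19 FPKM in LS against 5.59, 7.05 and 6.27 in SS, and at 6.22, 5.99 and 7.03 in LL against 11.97, 11.7 and 11.3 in SL. Of 20 immediate early genes Btg2, Egr2, Fos and Jun were called lower. Btg2 was not called with 7 of the 12 libraries left out singly, all but LS replicate 1, LL replicate 1, LL replicate 3, SS replicate 3 and SL replicate 1, and its change was -0.20 to -0.27 over the 12. Jun was not called with 8 of the 12 libraries left out singly, all but LS replicate 3, LL replicate 2, SS replicate 1 and SL replicate 2, and its change was -0.17 to -0.22 over the 12. Of 22 chaperones 5 were called lower, among them Sdf2l1 of the endoplasmic reticulum with like changes in both settings (-0.30 and -0.31). Sdf2l1 was not called with 9 of the 12 libraries left out singly, all but LL replicate 1, LL replicate 2 and SL replicate 2, and its change was -0.24 to -0.37 over the 12.

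Of 20 cholesterol synthesis genes 5 were called higher (among them Dhcr7, Mvd, Mvk and Sqle). Only 9 of the 20 met the sign rule, all higher, and 2 others were called with opposite signs. The list had a median change of -0.01 for LS minus SS and 0.33 for LL minus SL. Mvk, mevalonate kinase, was at 13.3, 12.7 and 12.7 FPKM in LS against 11.9, 10.6 and 11.3 in SS, and at 10.7, 9.396 and 9.87 in LL against 8.69, 9.17 and 7.62 in SL. Mvk alone of the 5 had changes of like size. Mvk was not called with 9 of the 12 libraries left out singly, all but LL replicate 2, SS replicate 1 and SL replicate 2, and its change was 0.17 to 0.23 over the 12. For Sqle, squalene epoxidase, LS minus SS was 0.12 and LL minus SL 0.40. The second injection lowered all 5, and 17 of the 20 genes of the list. Meningeal fibroblast genes Dcn and Mgp, a proteoglycan and a matrix inhibitor of calcification, were called lower. Of 13 genes of that list 4 met the sign rule, 2 higher and 2 lower. The meningeal list did not move lower as a whole, with a median change of -0.07 for LS minus SS and 0.63 for LL minus SL. Dcn was not called with 8 of the 12 libraries left out singly, all but LS replicate 2, LL replicate 1, LL replicate 2 and LL replicate 3, and its change was -0.54 to -0.79 over the 12.

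Several lists held no called member. Limma called 0 of 27 glutamate receptor and scaffold genes, 0 of 18 GABA synapse genes, 0 of 22 ribosomal protein genes, 0 of 25 respiratory chain genes and 0 of 14 markers of neighbouring brain regions among the same-sign genes. Over all genes, 3260 had an unadjusted p under 0.05 for the day-3 average. With 5.74% of all tested genes called, a count of 0 in lists of this size is near the background. The medians of these lists lay between -0.06 and 0.00 for the day-3 average.

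**Figure D4:**
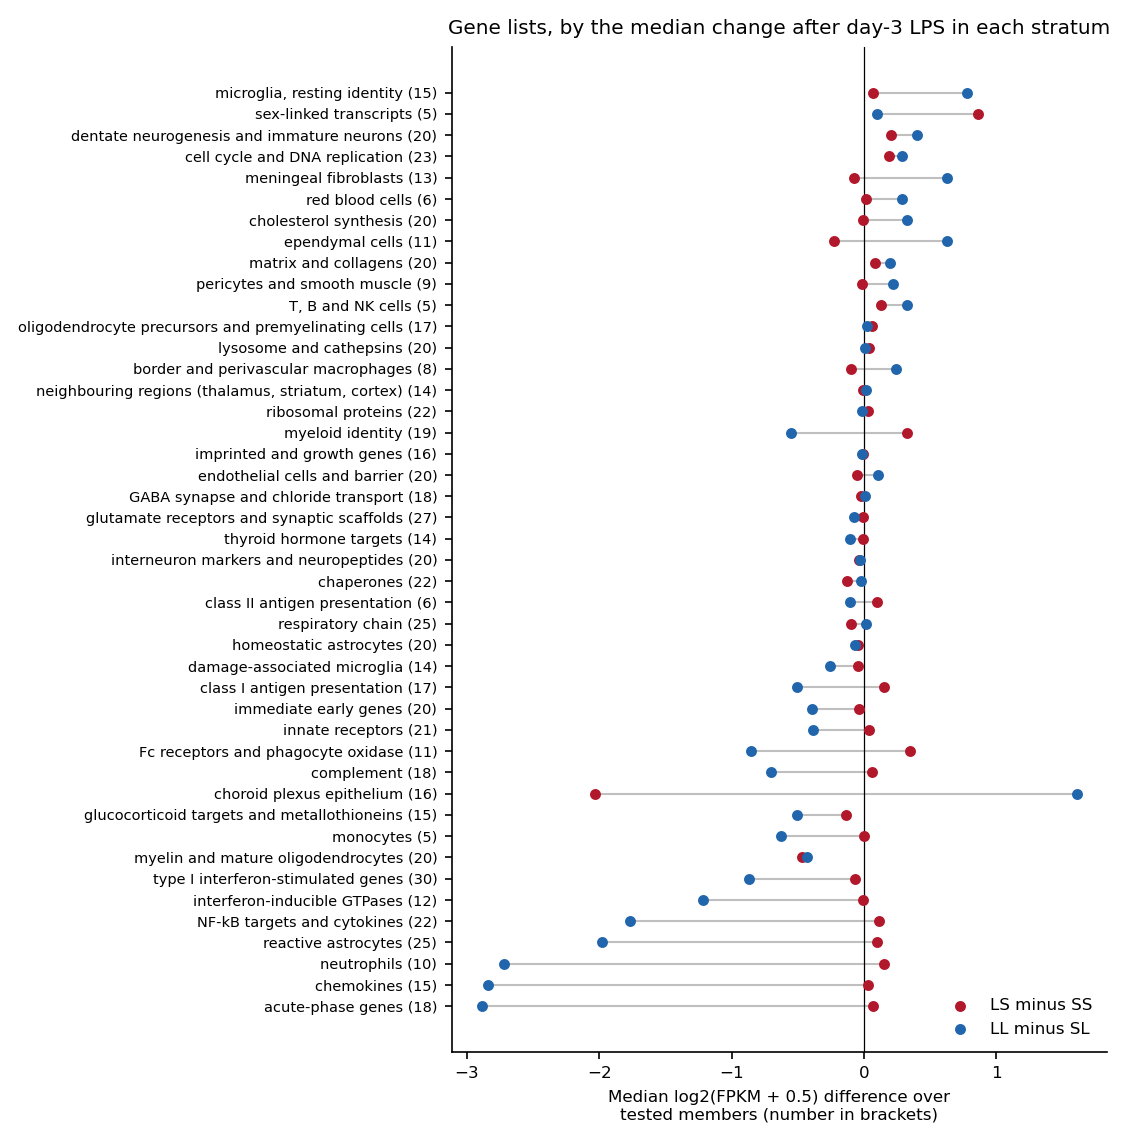
Median difference of log2(FPKM + 0.5) over the tested members of each of 44 gene lists (x axis; number of genes in brackets), LS minus SS in red and LL minus SL in blue. Myelin genes lie at -0.47 and -0.43, while acute-phase genes, chemokines and neutrophil markers lie near 0 in red and below -2.7 in blue, and choroid plexus genes lie on opposite sides of 0.

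The second injection was tested on the called members as a measure the sign rule had not used. The day-3 and day-14 calls share the estimate of each gene's spread, however. Genes of small spread are more readily called for both, so the shares of all tested genes below are not an independent background. Of the 417 lower members, 222 (53.2%) were raised by day-14 LPS and 2 (0.480%) lowered, where limma called 8.88% of all tested genes, 6.37% higher and 2.5% lower. Of the 343 higher members, 126 (36.7%) were lowered and 28 (8.16%) raised. Members with changes of like size stood nearer to the background: 21 of the 105 lower (20%) were raised, and 45 of the 170 higher (26.5%) were lowered. Where the weaker change was under 0.5 times the stronger, 201 of 312 lower members (64.4%) were raised and 81 of 173 higher members (46.8%) lowered. A gene high in SL alone is by arithmetic both raised on day 14 and lower after day-3 LPS. Likewise, a gene low in SL alone is both lowered on day 14 and higher after day-3 LPS. None of the myelin genes other than Trf, and none of the 8 higher cell cycle genes, was called for day 14.

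**Figure D5:**
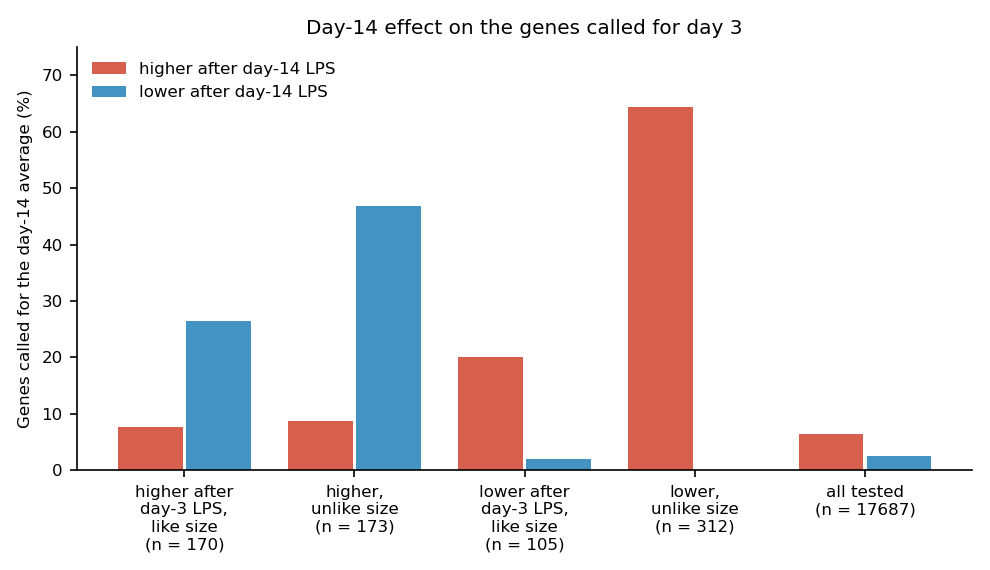
Percent of genes called by limma for the day-14 average (y axis, from 0), higher in red and lower in blue, in the called members split by direction and by whether the weaker change was at least 0.5 times the stronger, and in all tested genes. Lower members of unlike size were raised in 64.4%, against 20% of those of like size and 6.37% of all tested genes.

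The edge of the sign rule ran through genes with an LS minus SS difference near 0. Just inside lay Ngp, a neutrophil granule protein, with -0.0014 for LS minus SS and -2.88 for LL minus SL, and Tnfsf8, a tumour necrosis factor relative, with -0.0011 and -1.27. Just outside lay Hacd2, an enzyme of fatty acid elongation, with 0.0004 and -0.42, and Tmem123, a membrane protein, with 0.0002 and -0.58. Calls also rested on the model. With day 3 as the only factor, so that the day-14 difference stayed in the spread of the 6 and 6 libraries, limma called 7 genes, all of them members with changes of like size: Ighm, Lsm11, Dpysl3 and Pald1 higher, and Mal, Jam3 and Snord104 lower. Without LS replicates 2 and 3, 291 same-sign genes were called, of which 234 were among the 760. Of the 95 called members chosen by the rule for named genes, Mal, Dpysl3 and Ighm were called under every setting that tested them. These were 29 settings for Mal and Dpysl3 and 28 for Ighm, which is not protein coding. With each library left out in turn, 74 of the 95 were called throughout. Of the 95, 25 did not keep the same sign in both settings under at least 1 setting tried, 18 of them with the choroid plexus covariate.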

How the data were processed

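Gene-level FPKM for 12 mouse hippocampal polyA libraries, 3 animals in each of 4 groups, were used as the authors deposited them. HISAT2 2.0.5, featureCounts 1.5.0-p3 and mm10 are named, per the submitters' processing notes; these do not give strand or shared-fragment settings. FPKM times gene length per sequenced fragment gave whole fragments for 100% of 309337 values above 0 (tolerance 0.01), which gave the depths. Values were analysed as log2(FPKM + 0.5) for genes reaching 0.5 FPKM in 3 or more libraries, in limma 3.58.1 (R 4.3.3) with 1 mean per group, 8 residual degrees of freedom and Benjamini-Hochberg adjustment at 0.05. Scripts were tested on simulated data.

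Named genes were the 12 higher and 12 lower called protein-coding members with the largest weaker change and a group mean of at least 1 FPKM, up to 3 called members of each of 44 gene lists, fixed marker genes and the genes at the edge of the sign rule; any others were chosen after their values were seen, and a few of these genes are not reported here. The members and lists were chosen with earlier results of these data known. Alternatives covered pseudocount, filter, scaling, model, covariates and left-out libraries, and thinning to equal depth was chosen after seeing the data. Same-numbered libraries of different groups correlated at -0.07 to 0.10 in their deviations, none of 18 pairs over 0.1. The sample labels give no pairing by number, and the main model used none. Such correlations over all genes cannot exclude a pairing that touches some genes.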

Additional observations from a re-analysis of the deposited data

Results flagged for a closer look

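Of 102 named genes, 34 had a day-3 change that differed between the day-14 settings by limma's interaction term at an adjusted p under 0.05. This was so for 5.33% of all tested genes, but most named genes were chosen on the changes compared, so nothing is read from the count. Among the 34, Cxcl2, Retnlg, Ngp, Chil3, Tnfsf8 and Tnf reached 0.5 FPKM only in SL and so had to differ. The term is the LL minus SL change minus the LS minus SS change, on the log2 scale, and since the sign rule used both changes it is given as a description. Among higher members the interaction was 1.19 for Fabp7, 1.18 for Trem2 and 0.279 for Sqle, all with the larger change in LL minus SL.

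Lower members had negative values. The chemokines Ccl4 and Cxcl2 were at -4.69 and -3.14, the inflammatory genes Steap4, Lrg1, Sod2 and Ptgs2 at -4.23, -1.77, -0.559 and -0.772, and the leukocyte genes Retnlg, Ngp, Chil3, Fcgr2b and Itgam at -3.08, -2.88, -2.88, -1.43 and -0.584. Metallothioneins Mt1 and Mt2 were at -1.80 and -2.35, and interferon-induced Ifit3, Gbp3 and Irgm1 at -1.72, -1.29 and -1.10. Thbs4 was at -1.42, Hspb1 at -1.35, Gpnmb at -1.14, Egr2 at -0.828, Btg2 at -0.394, Igfbp3 at -0.694, Slc2a1 at -0.299 and Tnfsf8 at -1.27.

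Genes with opposite signs in the 2 settings, which are not members, were also among the 34. The values were 2.03 for P2ry12, -2.07 for Gfap, -5.08 for Lcn2, -3.93 for Tnf, 6.32 for Ttr, -0.424 for Hacd2 and -0.579 for Tmem123.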

How the results depend on the processing

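The counts below run in the order of all day-3 calls (1015), those with the same sign in both settings (760), those of like size (275) and same-sign calls also called for day 14 (378). An additive model of the injections, which leaves their interaction in the spread, gave 157, 157, 107 and 64, and day 3 as the only factor gave 7, 7 and 7, with no day-14 value. Without LS replicates 2 and 3 together they were 430, 291, 98 and 154. Each library left out in turn gave 639 to 918, 482 to 734, 167 to 283 and 266 to 348. The lowest of the first 3 came without SL replicate 2, and counts over 1.5 times below the full set also came without LL replicate 1 (495 same sign, 169 like size), LS replicate 3 (173 like size) and LL replicate 2 (181 like size). With the choroid plexus covariate 182 were of like size, and requiring no overlap in both settings left 366; the cause was not tested. With the replicate number as a block the counts were 961, 718, 254 and 346, although the labels give no pairing by number. Limma-voom on whole fragments called 532 higher and 394 lower same-sign genes. Other counts stayed within 1.5 times. Among named genes the only sign of the day-3 average to turn was that of Ttr, 0.32 (limma adjusted p = 0.319) without LS replicates 2 and 3. The sign rule held less well: of 95 named called members, 25 failed it under at least 1 setting, 18 with the choroid plexus covariate, 9 without LS replicates 2 and 3 and 12 with 1 library left out. Ptgs2, Ngp, Chil3 and Tnfsf8 failed it in 6, 6, 6 and 8 settings. The depth of low genes limits their precision, and a lone left LS library is assumed to vary like the other groups.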

Other observations

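Some called members outside the gene lists had all 6 day-3 LPS libraries beyond all 6 day-3 saline libraries, and the genes here were chosen after their values were seen. Several lower ones are known from oligodendrocytes and Schwann cells. Erbb3, a neuregulin receptor, was at 2.01, 1.26 and 1.48 FPKM in LS against 2.65, 2.45 and 2.48 in SS, and at 1.93, 1.24 and 1.88 in LL against 2.19, 3.02 and 2.47 in SL. Adamts4, a protease of mature oligodendrocytes, was at 10.9, 8.82 and 10.7 FPKM in LS against 15.4, 11.5 and 12.9 in SS, and at 10.1, 6.48 and 9.58 in LL against 12.6, 13.2 and 11.2 in SL. Their day-3 changes were -0.52 (SE 0.11) and -0.43 (SE 0.11), and Cdh19, a cadherin, Galnt6, a glycosyltransferase, and Jam3, a junction protein, changed by -0.64 (SE 0.12), -0.72 (SE 0.12) and -0.25 (SE 0.04). Clu, the secreted chaperone clusterin, changed by -0.45 (SE 0.04), and Npas2, a clock transcription factor, by -0.48 (SE 0.09).

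On the higher side, Rcor2, a corepressor subunit of neural progenitors, was at 9.88, 8.7 and 10.8 FPKM in LS against 6.89, 8.07 and 6.804 in SS, and at 9.25, 8.68 and 8.14 in LL against 6.08, 5.46 and 7.18 in SL. Rac3, a small GTPase of developing neurons, changed by 0.39 (SE 0.04), and the cell division genes Kifc1 and Racgap1, a spindle motor and a regulator of cytokinesis, by 0.50 (SE 0.11) and 0.39 (SE 0.08). Parvg and Arhgap45, which are expressed in blood cells, changed by 0.32 (SE 0.06) and 0.37 (SE 0.08). These values describe the libraries that chose the genes and carry no test.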
